A study of Mus musculus with 12 samples.

Results

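Catabolism of the branched-chain amino acids leucine, isoleucine and valine was followed in gonadal white adipose tissue (GWAT) through 10 genes, Bcat2, Bckdha, Bckdhb, Dbt, Ivd, Mccc1, Mccc2, Acadsb, Pcca and Pccb. They were found by their symbols among the 55281 genes of the deposited table, and all 10 passed the filter on low counts, which left 18427 genes for testing. The tissue came from male mice of 22 to 24 weeks that carried Hoip fl/fl alleles. HoipA-KO mice were AdipoQ.Cre+, so that Hoip (Rnf31, the catalytic subunit of the linear ubiquitin assembly complex) was deleted in mature adipocytes by Cre under the adiponectin promoter, and their AdipoQ.Cre- littermates are called WT. From 6 weeks of age the mice had a control diet (CD, 14% fat per the labels) or a high-fat diet (HFD, 60% fat) for 16 weeks. Polyadenylated RNA was sequenced in 3 libraries for each of the 4 groups, and each library held RNA pooled from 3 mice, so the spread given here is between pools and not between single mice.

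Between 30513446 and 60540225 estimated reads were counted per library, and every member lay far above the floor of 3 counts, equal to at most 0.0983 CPM (counts relative to the sum of a library) in any library. Levels are given as CPM after TMM normalization. WT CD replicate 3 was left out of the tests, as in the comparisons deposited by the authors, and its values are given separately. Pearson's r between WT CD libraries, across genes, ran from 0.793 to 0.904, against 0.971 to 0.993 within the other groups. Markers of epididymis and testis, tissues that lie against this fat pad, summed to 14789 CPM in WT CD replicate 2 and 6531 in replicate 3, against 15.0 in replicate 1, 1279 in HoipA-KO HFD replicate 1 and at most 81.2 in the other libraries. Rnf31 had 20.2, 20.6 and 12.6 CPM in WT pools on CD and 17.9, 18.3 and 21.6 in HoipA-KO pools on CD, and it differed by -0.08 on the log2 scale on CD (adjusted p = 0.654) and by 0.13 on HFD (adjusted p = 0.491), so the deletion could not be read from this whole tissue and whole transcript count.

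Branched-chain amino acids are first transaminated in mitochondria by BCAT2, and the keto acids that result are decarboxylated irreversibly by the branched-chain keto acid dehydrogenase (BCKDH) complex, the committed step. The routes then part. Leucine carbon passes through isovaleryl-CoA dehydrogenase and the biotin enzyme methylcrotonyl-CoA carboxylase to acetyl-CoA and acetoacetate, isoleucine carbon passes through the dehydrogenase ACADSB, and both isoleucine and valine yield propionyl-CoA, which propionyl-CoA carboxylase starts towards succinyl-CoA and the TCA cycle. Differentiated white adipocytes are known to run this pathway and to use its products for lipid synthesis.

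The promoters of Mccc1, Mccc2 and Ivd, which encode the leucine enzymes and had the lowest HoipA-KO to WT ratios among the members on CD in the fit of 11 libraries, are shown first. This order moved with the WT CD libraries, since with all 12 Acadsb lay below Mccc1. They are RefSeq windows (GRCm38.p6) of 250 bases before and 50 bases after the transcription start, at chr3:36000629-36000928 (minus strand), chr13:100015590-100015889 (minus strand) and chr2:118861744-118862043 (plus strand), written in the direction of transcription. Capitals mark the letters CCAAT or their reverse complement ATTGG in all 3, and CACGTG in Mccc2.
Mccc1: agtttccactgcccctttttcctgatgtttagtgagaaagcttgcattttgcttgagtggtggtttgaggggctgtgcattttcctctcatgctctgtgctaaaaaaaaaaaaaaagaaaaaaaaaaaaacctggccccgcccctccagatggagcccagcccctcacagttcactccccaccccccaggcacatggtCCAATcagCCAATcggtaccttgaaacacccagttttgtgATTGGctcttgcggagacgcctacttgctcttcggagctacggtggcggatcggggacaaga
Mccc2: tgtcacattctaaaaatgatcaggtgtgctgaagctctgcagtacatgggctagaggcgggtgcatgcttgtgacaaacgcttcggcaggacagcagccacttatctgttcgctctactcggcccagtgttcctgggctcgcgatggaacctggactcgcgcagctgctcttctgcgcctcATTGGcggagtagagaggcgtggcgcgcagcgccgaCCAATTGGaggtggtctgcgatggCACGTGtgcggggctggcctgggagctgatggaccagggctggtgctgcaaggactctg
Ivd: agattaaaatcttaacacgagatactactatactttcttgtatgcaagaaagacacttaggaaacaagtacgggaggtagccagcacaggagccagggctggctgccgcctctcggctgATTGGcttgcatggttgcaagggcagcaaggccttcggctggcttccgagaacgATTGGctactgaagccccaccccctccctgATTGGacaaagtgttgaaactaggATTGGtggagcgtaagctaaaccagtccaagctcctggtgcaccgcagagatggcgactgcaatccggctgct
On either strand and with overlapping matches counted, these letters occurred 3 times in the Mccc1 window, 3 times in Mccc2 (where a pair overlaps) and 4 times in Ivd. At least 3 matches were present in 3.37% of all 32851 promoter windows, and of the 9 members with a window, which together had 12 windows, these 3 genes alone reached that number. CCAAT or ATTGG occurred at least once in 37.4% of all windows and in those of 5 of the 9 members, Bckdhb and Pcca besides the 3 shown. GGGCGG or CCGCCC occurred in 35.7% of all windows and in those of Bckdhb, Acadsb, Mccc1 and Pcca. The palindrome CACGTG occurred in 7.15% of all windows and in Mccc2 alone, and AAGGTCA or TGACCTT in 4.72% of all windows and in none of the members. The table used held no window for Dbt. The motifs were chosen after the expression values were seen, and a match is only a run of letters in this window. The cutoff of 3 matches equals the lowest number in the 3 windows shown, so the share of 3.37% beside it is a description and not a test.

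In HoipA-KO mice on CD all 10 members were lower than in WT mice on CD (edgeR's quasi-likelihood test, Benjamini-Hochberg adjusted p under 0.05 over all genes tested), where 18.8% of all genes tested were lower. On HFD 7 of the 10 were lower, against 7.62% of all genes, and the 3 that did not pass were Bcat2 and the decarboxylase genes Bckdha and Bckdhb. Bckdha and Bckdhb passed on HFD with DESeq2's Wald test (adjusted p = 0.0205 and 0.0406), where 2211 of 31221 genes were lower. With only the 2 groups compared in edgeR they passed as well (adjusted p = 0.0234 and 0.0463), where 1988 of 16838 genes were lower. Bckdha also passed with at least 10 counts required in every library (edgeR, adjusted p = 0.0490), where 1598 of 14339 genes were lower. The median log2 fold change of the members was -1.62 on CD and -1.14 on HFD, while that of all genes tested was -0.06 and 0.06. On CD the 3 HoipA-KO libraries lay below both tested WT libraries for 10 of 10 members, as did 25.6% of all genes, and on HFD they lay below all 3 WT libraries for 9 of 10, as did 22.7% of all genes. All 6 HoipA-KO libraries lay below all 5 tested WT libraries for 8 members, against 10.6% of all genes, and with WT CD replicate 3 included for 7, against 7.42%. With all 12 libraries in the fit, 9 members were lower on CD (19.1% of all genes), Bckdhb being the exception (adjusted p = 0.103), and on HFD only Ivd and Mccc2 passed (2.25% of all genes).

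WT CD replicate 1 had the highest level of all 12 libraries for each of the 10 members, and replicate 3 was below replicates 1 and 2 for each of them. The CD comparison therefore depended on which WT CD libraries entered. With replicates 2 and 3 in place of 1 and 2, a choice made after seeing the data, the median over the members was -0.80 and 6 were still lower, where 24.4% of all genes were lower. These were Acadsb, Mccc1, Mccc2, Ivd, Pcca and Pccb, which act after the BCKDH step, with log2 fold changes from -0.75 for Pcca to -1.52 for Ivd. The 4 members of the shared first steps had estimates of -0.56 for Bcat2, -0.58 for Bckdha, -0.22 for Bckdhb and -0.68 for Dbt there, and none of them passed (adjusted p from 0.0842 to 0.531).

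**Figure D1:**
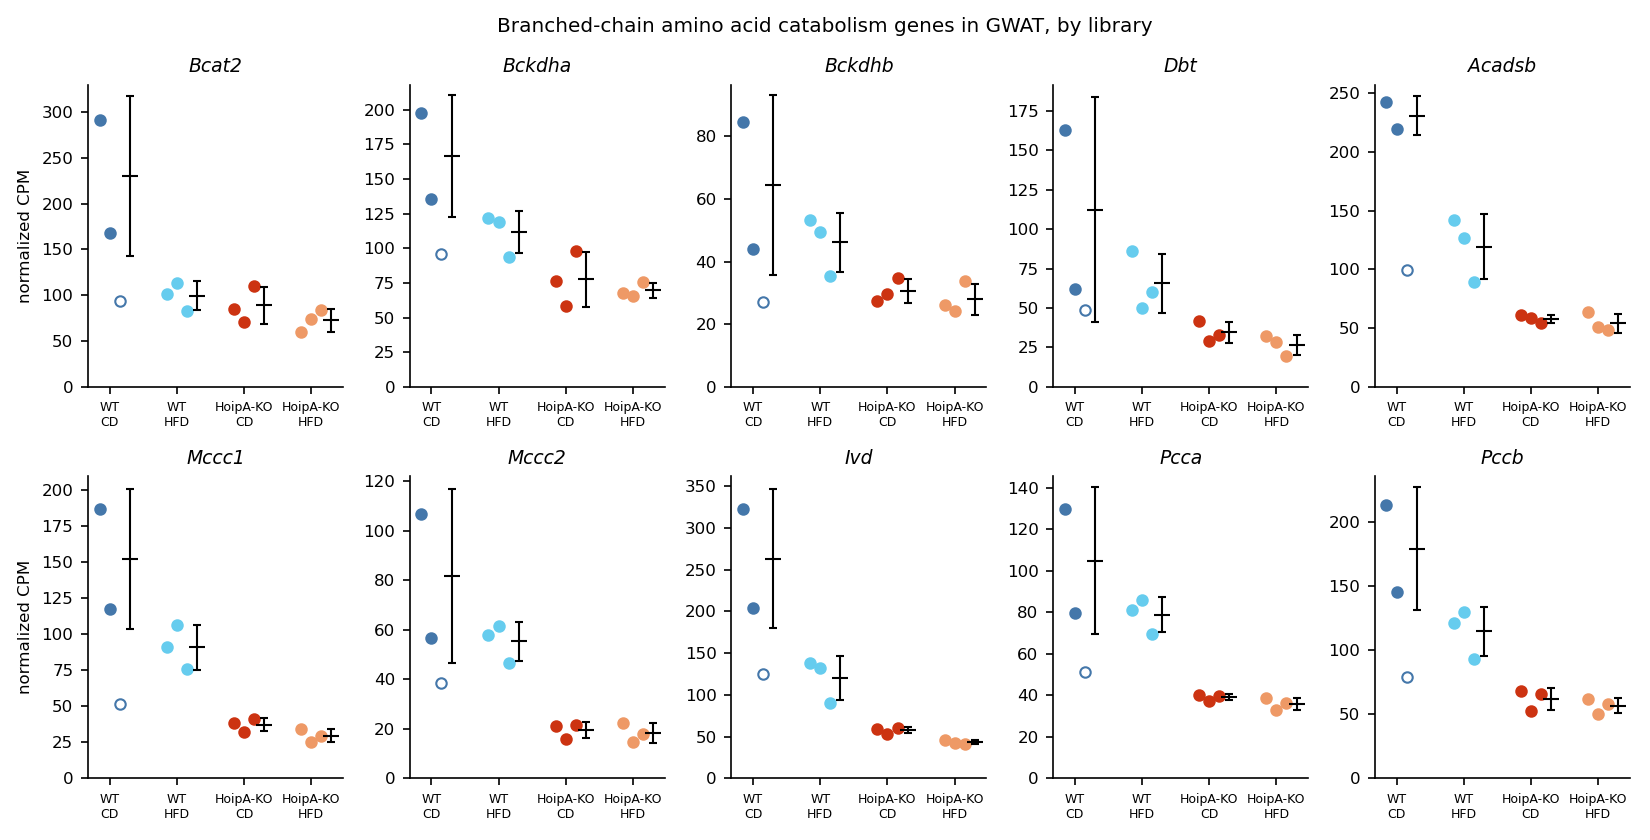
Normalized CPM (vertical axes, from 0) of each member in each of the 12 libraries by genotype and diet, with the mean and SD of the libraries tested drawn beside them as black bars and WT CD replicate 3, which was not tested, as an open circle. All HoipA-KO libraries lie below all WT libraries in 7 of the 10 panels, the exceptions being Bcat2, Bckdha and Bckdhb, with Ivd for example at 41.6 to 60.6 CPM against 90.3 to 322 in all 6 WT libraries, and WT CD replicate 1 is the highest point of each panel.

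Bcat2 (ENSMUSG00000030826, chr7:45570153-45589711, plus strand), the mitochondrial transaminase, measured 291 CPM in WT CD replicate 1, 168 in replicate 2 and 93.7 in replicate 3. It had 101, 114 and 82.6 in WT pools on HFD, 85.2, 70.9 and 110.3 in HoipA-KO pools on CD, and 59.8, 73.8 and 84.3 in HoipA-KO pools on HFD. The HoipA-KO CD libraries were below both tested WT CD libraries, but the highest of them was above WT CD replicate 3, and on HFD the genotypes overlapped. HoipA-KO mice differed from WT mice by a log2 fold change of -1.37 on CD (SE 0.27, adjusted p = 0.00427) and -0.45 on HFD (SE 0.25, adjusted p = 0.239), the latter with a 95% interval from -1.003 to 0.10.

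The BCKDH complex is built on a core of DBT, the acyltransferase, with the decarboxylase subunits encoded by Bckdha and Bckdhb. Bckdha (ENSMUSG00000060376, chr7:25629946-25658981, minus strand) had 198 and 136 CPM in WT pools on CD, 95.8 in replicate 3, and 122, 119 and 94.0 in WT pools on HFD. HoipA-KO libraries measured 76.5, 58.2 and 97.7 on CD, and 67.8, 65.6 and 75.4 on HFD, below the WT range on each diet except that 1 CD library was above WT CD replicate 3. Its log2 fold change was -1.11 on CD (SE 0.23, adjusted p = 0.00596) and -0.68 on HFD (SE 0.21, adjusted p = 0.0659). Bckdhb (ENSMUSG00000032263, chr9:83925145-84124240, plus strand) had 84.7 and 44.1 CPM in WT pools on CD, 27.0 in replicate 3, and 53.4, 49.5 and 35.5 in WT pools on HFD. It had 27.5, 29.7 and 34.9 in HoipA-KO pools on CD and 26.1, 24.1 and 33.7 in HoipA-KO pools on HFD. These ranges did not overlap those of the tested WT libraries, although WT CD replicate 3 lay below all 3 HoipA-KO CD libraries. The log2 fold change was -1.07 on CD (SE 0.28, adjusted p = 0.0149) and -0.72 on HFD (SE 0.25, adjusted p = 0.0885).

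Dbt (ENSMUSG00000000340, chr3:116513070-116549981, plus strand) had the largest ratio between the 2 tested WT CD libraries among the members, with 163 and 62.2 CPM, and 48.5 in replicate 3. It had 86.4, 50.2 and 60.1 in WT pools on HFD, 41.7, 28.9 and 33.0 in HoipA-KO pools on CD, and 32.0, 28.5 and 19.4 in HoipA-KO pools on HFD. All 6 HoipA-KO libraries were below all 6 WT libraries. Dbt differed by a log2 fold change of -1.70 on CD (SE 0.39, adjusted p = 0.00823) and -1.30 on HFD (SE 0.36, adjusted p = 0.0452), each with the largest standard error among the members.

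On the leucine route, Ivd (ENSMUSG00000027332, chr2:118861954-118882909, plus strand), isovaleryl-CoA dehydrogenase, had 322 and 204 CPM in WT pools on CD and 125 in replicate 3. It had 139, 133 and 90.3 in WT pools on HFD, 58.8, 53.4 and 60.6 in HoipA-KO pools on CD, and 46.5, 41.9 and 41.6 in HoipA-KO pools on HFD. Its highest HoipA-KO library was thus well below its lowest WT library on either diet. Ivd was 4.57-fold lower in HoipA-KO mice on CD, a log2 fold change of -2.19 (SE 0.23, adjusted p = 0.000452), and 2.78-fold lower on HFD, a log2 fold change of -1.48 (SE 0.21, adjusted p = 0.00871). Mccc1 (ENSMUSG00000027709, chr3:35959312-36000678, minus strand), the biotin-carrying subunit of methylcrotonyl-CoA carboxylase, had 186 and 117 CPM in WT pools on CD, 51.5 in replicate 3, and 90.7, 106 and 75.5 in WT pools on HFD. It had 38.2, 32.2 and 41.1 in HoipA-KO pools on CD and 34.4, 25.2 and 29.2 in HoipA-KO pools on HFD. For Mccc1 the log2 fold change was -2.03 on CD (SE 0.23, adjusted p = 0.000486) and -1.62 on HFD (SE 0.21, adjusted p = 0.00871). Mccc2 (ENSMUSG00000021646, chr13:99948530-100015639, minus strand), the other subunit, had 107 and 56.9 CPM in WT pools on CD, 38.5 in replicate 3, and 57.8, 61.7 and 46.7 in WT pools on HFD. It had 21.3, 15.9 and 21.4 in HoipA-KO pools on CD and 22.4, 14.7 and 17.8 in HoipA-KO pools on HFD. Neither carboxylase gene overlapped between genotypes in any of the 12 libraries. For Mccc2 the log2 fold change was -2.07 on CD (SE 0.28, adjusted p = 0.000753) and -1.60 on HFD (SE 0.26, adjusted p = 0.0105).

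Acadsb (ENSMUSG00000030861, chr7:131410601-131448944, plus strand), the acyl-CoA dehydrogenase of the isoleucine route, had 243 and 219 CPM in WT pools on CD, the closest pair among the members, and 99.8 in replicate 3. It had 142, 127 and 89.3 in WT pools on HFD, 61.04, 58.8 and 54.4 in HoipA-KO pools on CD, and 63.3, 51.0 and 48.1 in HoipA-KO pools on HFD, with no overlap between genotypes. Acadsb differed by a log2 fold change of -1.99 on CD (SE 0.20, adjusted p = 0.000452) and -1.14 on HFD (SE 0.18, adjusted p = 0.0107).

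Where isoleucine and valine carbon meet, Pcca (ENSMUSG00000041650, chr14:122534324-122891100, plus strand), the biotin-carrying subunit of propionyl-CoA carboxylase, had 129.9 and 79.7 CPM in WT pools on CD, 51.3 in replicate 3, and 81.0, 86.1 and 69.6 in WT pools on HFD. It was nearly the same in all 6 HoipA-KO libraries, at 39.95, 37.3 and 39.8 on CD, then 38.5, 32.9 and 36.2 on HFD. For Pcca the log2 fold change was -1.43 on CD (SE 0.19, adjusted p = 0.000761) and -1.14 on HFD (SE 0.18, adjusted p = 0.00999). Pccb (ENSMUSG00000032527, chr9:100982032-101034898, minus strand), its partner subunit, had 213 and 145 CPM in WT pools on CD, 78.8 in replicate 3, and 121, 130.2 and 93.6 in WT pools on HFD. It had 68.0, 52.3 and 66.1 in HoipA-KO pools on CD and 62.2, 50.2 and 58.0 in HoipA-KO pools on HFD, again below every WT library. For Pccb the log2 fold change was -1.53 on CD (SE 0.21, adjusted p = 0.000833) and -1.02 on HFD (SE 0.19, adjusted p = 0.0157).

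**Figure D2:**
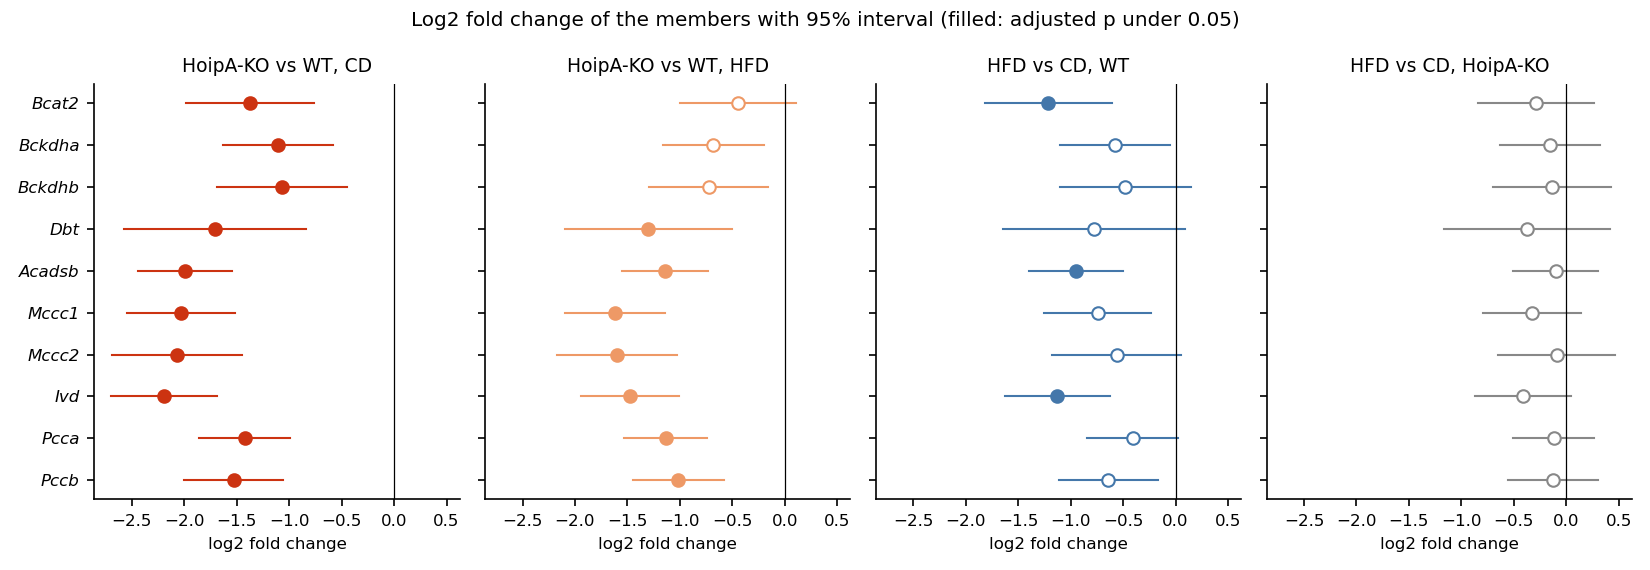
Log2 fold change (horizontal axes) of each member, listed from the transaminase downwards, with its 95% interval from the edgeR fit of 11 libraries, filled where the adjusted p was under 0.05. All 10 points are filled for HoipA-KO against WT on CD, 7 on HFD, 3 for HFD against CD in WT mice and none in HoipA-KO mice, where the estimates run from -0.41 to -0.09.

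Subunits of 1 enzyme were compared within libraries as log2 ratios, with an exact two-sided permutation test of the genotype labels within each diet (200 assignments, smallest possible p = 0.005, Benjamini-Hochberg adjusted over 4 ratios). The Mccc2 to Mccc1 ratio averaged -0.93 ± 0.17 (SD, n = 2) in WT pools on CD, -0.93 ± 0.09 (n = 3) in HoipA-KO pools on CD, -0.71 ± 0.07 in WT pools on HFD and -0.70 ± 0.08 in HoipA-KO pools on HFD, close between genotypes on each diet in the tested libraries. In WT CD replicate 3, which was not tested, it was -0.42, against -1.02 to -0.84 in HoipA-KO pools on CD. Averaged over the 2 diets, the difference between genotypes was -0.001 for Mccc2/Mccc1 (exact p = 0.98), -0.002 for Pccb/Pcca (exact p = 0.975) and 0.03 for Bckdhb/Bckdha (exact p = 0.825). For Pccb/Pcca it was -0.13 on CD and 0.12 on HFD, and for Bckdhb/Bckdha 0.11 and -0.04, which offset each other in the average. On HFD Pccb/Pcca ran from 0.61 to 0.69 in HoipA-KO pools and from 0.43 to 0.60 in WT pools. The diets were not tested separately. On the same average, Dbt relative to Bckdha was lower by 0.53 in HoipA-KO mice and did not pass (exact p = 0.08, adjusted p = 0.32). Its ratios ran from -1.96 to -0.88 in their libraries and from -1.24 to -0.28 in the tested WT libraries, which overlap. No ratio differed past the threshold on this average, and at this number of libraries a moderate shift may not be detectable. With WT CD replicate 3 included, the differences on CD were -0.18 for Mccc2/Mccc1, -0.07 for Pccb/Pcca, 0.25 for Bckdhb/Bckdha and -0.35 for Dbt/Bckdha. On the average of both diets no ratio passed then either (exact permutation test, adjusted p = 0.34 for Dbt/Bckdha). A ratio of Ivd to Bckdha, chosen after its values were seen and so not tested, ran from 0.59 to 0.70 in the tested WT CD libraries, -0.06 to 0.18 in WT pools on HFD, -0.69 to -0.13 in HoipA-KO pools on CD and -0.86 to -0.54 in HoipA-KO pools on HFD, and was 0.38 in WT CD replicate 3.

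Compared per kilobase of the principal transcript in GENCODE M21, Bcat2 was the highest member in WT pools on CD with 129.7 ± 49.2 CPM per kilobase (SD, n = 2), followed by Bckdha with 87.8 ± 23.1, Pccb with 77.3 ± 20.7, Ivd with 71.8 ± 22.8 and Mccc1 with 61.9 ± 19.9. Bckdhb, Pcca, Mccc2, Acadsb and Dbt followed between 43.7 and 34.1, and no neighbours in this order were further apart than their SDs. In HoipA-KO CD (n = 3) Bcat2 with 50.1 ± 11.2 and Bckdha with 40.8 ± 10.4 were again highest, followed by Pccb with 26.8 ± 3.69 and Bckdhb with 20.9 ± 2.58. Ivd stood at 15.7 ± 1.04 and Mccc1 at 15.1 ± 1.85 CPM per kilobase there, and Bckdhb and Ivd were the first neighbours whose SD ranges did not meet. Mccc2 at 9.20 ± 1.48 was the lowest. The lengths assume that the principal transcript is the one expressed.

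The rest of the pathway was described through 31 further genes in 7 lists by route, all of which passed the low-count filter. On CD 18 of them were lower in HoipA-KO mice and 5 higher, against 18.8% and 18.9% of all genes, and on HFD 15 were lower and 1 higher, against 7.62% and 4.2%. With WT CD replicate 3 included, 13 were lower on CD, and on HFD 2 were. All 4 genes of the valine route were lower on CD, with a median of -1.75. Aldh6a1, the methylmalonate semialdehyde dehydrogenase, had 518 and 509 CPM in WT pools on CD, 204 in replicate 3, and 190 to 289 in WT pools on HFD. It had 63.2 to 77.7 in HoipA-KO pools on CD and 46.9 to 68.6 in HoipA-KO pools on HFD. Its log2 fold change of -2.88 on CD (SE 0.22, adjusted p = 0.000452) and -2.10 on HFD (SE 0.20, adjusted p = 0.00651) was below that of every member. Hibch, the hydroxyisobutyryl-CoA hydrolase, had log2 fold changes of -2.03 and -1.63, and Hibadh, the next dehydrogenase, of -1.47 and -1.03, all past the threshold. Acad8, isobutyryl-CoA dehydrogenase, was lower on CD (-0.84, adjusted p = 0.00114) and not past the threshold on HFD (-0.21, adjusted p = 0.233).

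Of the genes that take propionyl-CoA on to succinyl-CoA, all 4 were lower on CD, with Mmut, the mutase, at -1.50 (SE 0.21, adjusted p = 0.000882), and Mmut, Mmaa and Mmab were lower on HFD as well. On the isoleucine route Echs1, an enoyl-CoA hydratase that also serves valine, was lower on both diets (-1.47 and -0.92), Hsd17b10 on CD (-0.93), and the other 2 genes, which take part in general fatty acid oxidation, did not pass on either diet. On the leucine route Auh, the methylglutaconyl-CoA hydratase, fell by 1.00 and 0.94 on the log2 scale and Acat1, the acetoacetyl-CoA thiolase, had log2 fold changes of -1.36 and -0.97, past the threshold on both diets.

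Dld, the dehydrogenase subunit that BCKDH shares with its sister complexes, was lower on both diets (-0.86, adjusted p = 0.0135, and -0.80, adjusted p = 0.0356). Ppm1k, the phosphatase that activates BCKDH, had 15.1 and 10.3 CPM in WT pools on CD, 7.46 in replicate 3 and 4.97 to 6.41 in HoipA-KO pools on CD. It was lower on CD (-1.20, SE 0.21, adjusted p = 0.00251) but did not pass on HFD (-0.48, adjusted p = 0.124). Bckdk, the opposing kinase, named after its values were seen, had 70.1 and 60.1 CPM in WT pools on CD, 27.1 in replicate 3, 48.3 to 55.3 in WT pools on HFD, 50.9 to 58.7 in HoipA-KO pools on CD and 54.3 to 61.8 in HoipA-KO pools on HFD. Its log2 fold change did not pass on either diet (-0.26, adjusted p = 0.141, and 0.14, adjusted p = 0.432). The log2 ratio of Bckdk to Bckdha, a description with no test, was -1.50 and -1.17 in WT pools on CD, -1.82 in replicate 3, -1.34 to -0.85 in WT pools on HFD, -0.74 to -0.19 in HoipA-KO pools on CD and -0.32 to -0.25 in HoipA-KO pools on HFD. On this ratio every HoipA-KO library was above every WT library.

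The transport genes moved in both directions. Slc25a44, the mitochondrial carrier for branched-chain amino acids, was lower on both diets (-0.73, adjusted p = 0.0109, and -0.68, adjusted p = 0.0294), and Slc43a1, a plasma membrane carrier, was lower on CD (-1.66, adjusted p = 0.0159). Slc43a1 had 41.8 CPM in WT CD replicate 1 but 11.9 in replicate 2 and 11.6 in replicate 3, against 5.96 to 10.0 in HoipA-KO pools on CD. Slc43a2, a related carrier, was higher on CD, with 21.2 and 21.2 CPM in the tested WT libraries, 32.6 in WT CD replicate 3 and 185 to 252 in HoipA-KO libraries (3.37, SE 0.50, adjusted p = 0.0011). Slc7a5 and Slc7a8, the light chains of large neutral amino acid transporters, and Slc3a2, their common heavy chain, were higher on CD with log2 fold changes of 1.08, 0.95 and 0.95, and Slc7a5 also on HFD (0.84, adjusted p = 0.0406). For Slc7a5 this did not hold with WT CD replicate 3 included, which had 72.1 CPM against 5.53 and 10.1 in the other WT CD libraries and 15.7 to 17.4 in HoipA-KO pools on CD. With all 12 libraries its log2 fold change on CD was -0.85 (adjusted p = 0.371), and it did not pass on HFD (adjusted p = 0.559). Beside the 4 higher transport genes, the 9 macrophage markers were higher on CD as well and their part in these values was not tested. Of the genes that attach biotin or lipoate, Lias and Lipt1 were lower on CD and Lias, Btd and Hlcs on HFD.

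**Figure D3:**
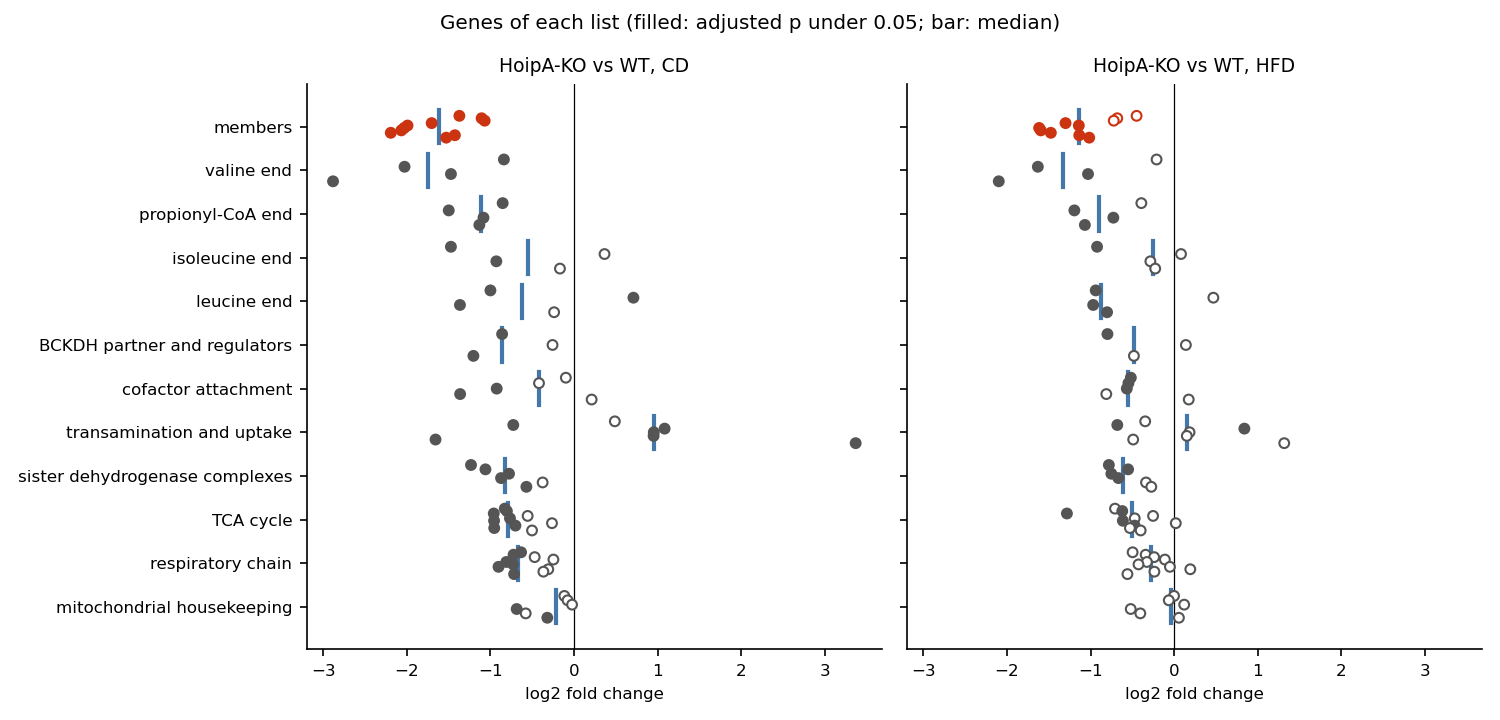
Log2 fold change (horizontal axes) of each gene in HoipA-KO against WT on CD and on HFD, by list, filled where the adjusted p was under 0.05, with the median of each list as a vertical bar. Of the lists drawn, the members (median -1.62 on CD and -1.14 on HFD) and the valine route have the lowest medians, and uptake genes spread to both sides. Mitochondrial housekeeping genes have medians of -0.22 and -0.03, with estimates down to -0.69 on CD. Not drawn are the other biotin carboxylases (-2.89 and -1.72), transcriptional regulators (-1.91 and -1.51) and adipocyte markers (-1.92 and -2.03), whose medians were lower than those of the members.

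Other mitochondrial genes were lower too, with smaller medians. On CD 5 of 6 genes of the pyruvate and oxoglutarate dehydrogenase complexes, which are built like BCKDH, were lower (median -0.83), as were 7 of 10 TCA cycle genes (-0.78), 6 of 10 respiratory chain genes (-0.68) and 2 of 6 genes for import, chaperones and other housekeeping (-0.22). On HFD the counts were 4 of 6 (-0.61), 4 of 10 (-0.50), 0 of 10 (-0.28) and 0 of 6 (-0.03), against 7.62% of all genes. With all 12 libraries the counts in this order were 4, 2, 2 and 1 on CD, against 19.1% of all genes. On HFD they were then 1, 0, 0 and 0, against 2.25% of all genes. None of these 4 lists had a median as low as that of the members on either diet. The 3 other biotin carboxylases, Pcx, Acaca and Acacb, which make oxaloacetate (Pcx) and malonyl-CoA, had lower estimates still, with log2 fold changes of -2.20, -3.03 and -2.89 on CD and -1.95, -1.69 and -1.72 on HFD, all past the threshold. With all 12 libraries 3 of them were lower on CD and 2 on HFD. Of 6 transcriptional regulators of fat cell metabolism 5 were lower on CD and 4 on HFD, and the 3 with the highest levels were Pparg (-1.41 and -1.11) and Klf15 (-3.00 and -1.92), lower on both diets, and Esrra, which did not pass on either (0.15, adjusted p = 0.567, and 0.073, adjusted p = 0.789). With all 12 libraries 4 of the 6 were lower on CD and 0 on HFD. Klf15, a factor known to regulate amino acid breakdown, had 127 and 51.7 CPM in WT pools on CD, 32.2 in replicate 3, and 26.3 to 43.1 in WT pools on HFD. It had 4.90 to 15.0 in HoipA-KO pools on CD and 7.77 to 10.8 in HoipA-KO pools on HFD.

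Adipocyte markers moved with the members. Of 10 such markers 9 were lower in HoipA-KO mice on each diet, with medians of -1.92 on CD and -2.03 on HFD, and none was at 0 in any library. Their summed level was 27229 and 61994 CPM in the tested WT CD libraries, 18620 in replicate 3, 31184 to 38956 in WT pools on HFD, 14465 to 14989 in HoipA-KO pools on CD and 12386 to 14666 in HoipA-KO pools on HFD, so the genotypes did not overlap. In bulk tissue, fewer adipocytes and less of these messages per adipocyte cannot be told apart. Macrophage markers moved against the members, with 9 of 9 higher on CD (median 4.88) and 3 of 9 on HFD (median 1.04). With all 12 libraries 9 were higher on CD and 0 on HFD, and none of the 9 markers was at 0 in any library. They summed to 552 and 669 CPM in WT pools on CD, 401 in replicate 3, 2320 to 7387 in WT pools on HFD, 14401 to 19240 in HoipA-KO pools on CD and 8952 to 17057 in HoipA-KO pools on HFD. The part of either cell type in the members' values was not tested. Of 6 progenitor markers 4 were higher on CD and none on HFD, and of 5 endothelial markers 2 were lower on each diet. With all 12 libraries 1 endothelial marker was lower on CD and 0 on HFD.

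**Figure D4:**
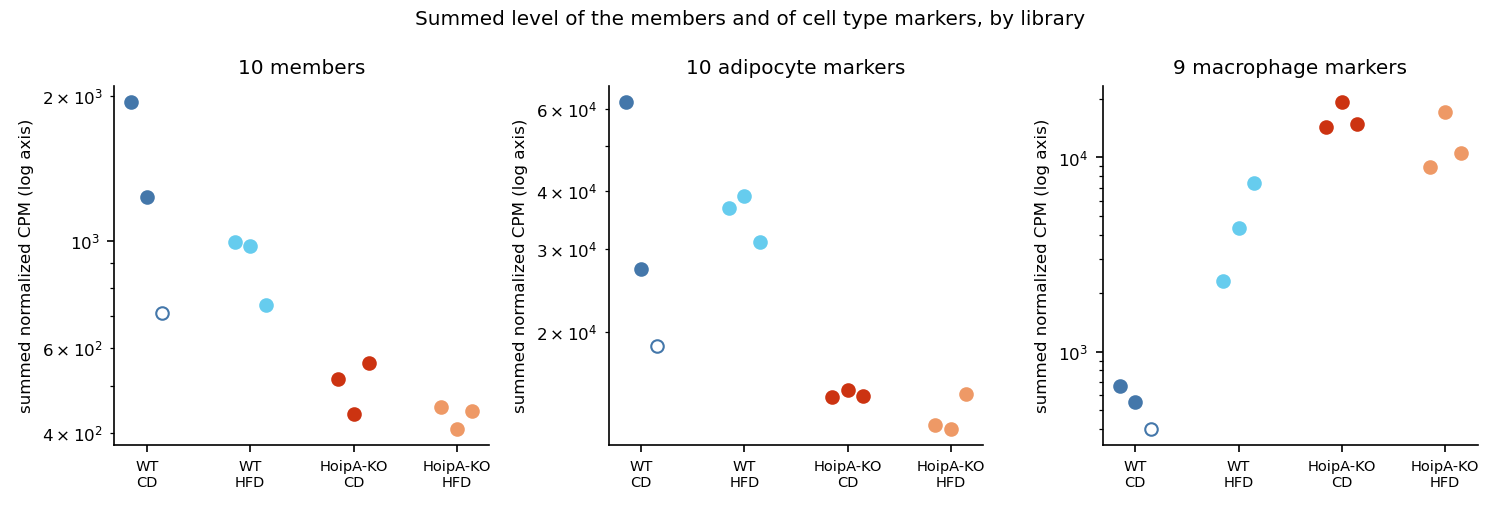
Summed normalized CPM (log axes) of the 10 members, of 10 adipocyte markers and of 9 macrophage markers in each library, with WT CD replicate 3 as an open circle. Members run from 407.9 to 559 CPM in HoipA-KO and from 709.5 to 1938 in WT libraries, adipocyte markers are lower in all HoipA-KO libraries, and macrophage markers are higher.

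Each member was also set against the mean log2 level of the 10 adipocyte markers in its own library, as a description with no test. On this scale every member was higher in HoipA-KO than in WT mice, by 0.24 for Ivd to 1.39 for Bckdhb on CD and by 0.66 for Mccc1 and Mccc2 to 1.82 for Bcat2 on HFD. For the shared first steps the differences on CD were 1.05 for Bcat2, 1.28 for Bckdha, 1.39 for Bckdhb and 0.84 for Dbt. They were 1.01 for Pcca and 0.88 for Pccb, and lowest for Acadsb (0.40), Mccc1 (0.39), Mccc2 (0.39) and Ivd (0.24). For these last 4 the direction on CD depended on the mean, which single markers move, the lowest having a log2 fold change of -6.47. Set against the median log2 fold change of the markers, -1.92 on CD, the estimates of Ivd (-2.19), Mccc2 (-2.07), Mccc1 (-2.03) and Acadsb (-1.99) were lower and those of the other 6 members were higher. On HFD all 10 were above the markers' median of -2.03. For Ivd and Acadsb the tested libraries of the genotypes overlapped on CD on this scale.

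**Figure D5:**
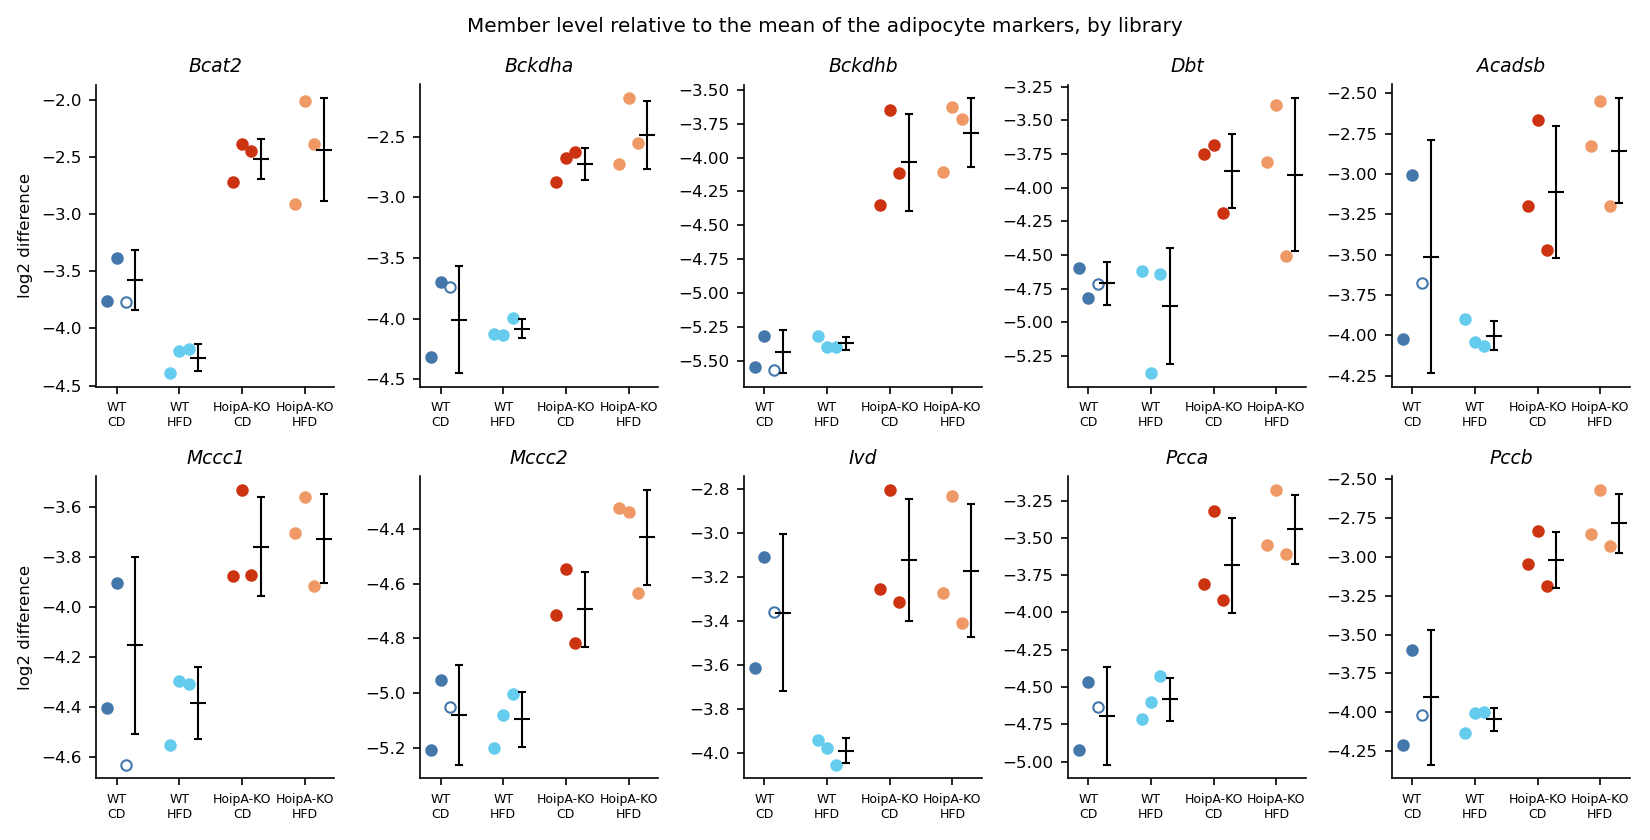
Log2 level of each member minus the mean log2 level of 10 adipocyte markers in the same library (vertical axes), by genotype and diet, with mean and SD of the tested libraries as black bars and WT CD replicate 3 as an open circle. Bckdhb lies at a mean of -5.43 and -5.37 in WT and -4.04 and -3.82 in HoipA-KO mice on CD and HFD, while Ivd on CD overlaps between genotypes.

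The effect of diet was asked within each genotype. In WT mice Bcat2, Acadsb and Ivd were lower on HFD than on CD, with log2 fold changes of -1.21 (SE 0.27, adjusted p = 0.0199), -0.95 (SE 0.20, adjusted p = 0.0157) and -1.13 (SE 0.22, adjusted p = 0.0126). These were 3 of 10 members, where 5.47% of all genes tested were lower. The other 7 had estimates from -0.78 for Dbt to -0.41 for Pcca that did not pass, and the median of all 10 was -0.69. This comparison shares the WT CD libraries with that of the genotypes on CD. It depended on the WT CD libraries used. Replicate 1 was above every WT HFD library for all 10 members, replicate 2 was so for 6 and replicate 3 was below every WT HFD library for 6. Without replicate 1, Acadsb and Ivd still passed and Bcat2 did not. With all 12 libraries none of the 10 passed (5.97% of all genes lower, smallest adjusted p = 0.0747, for Ivd), and with replicates 2 and 3 in place of 1 and 2 the estimates of Bckdhb, Dbt, Mccc1, Mccc2, Pcca and Pccb were above 0. Of the 31 further genes 5 were lower (Aldh6a1, Acad8, Hibadh, Hsd17b10 and Mcee) and 2 were higher, where 9.35% of all genes were higher. The 2 were Bcat1, the cytosolic transaminase (1.24, adjusted p = 0.0065), and Slc43a2 (1.75, adjusted p = 0.0351). Bcat1 had 9.26 and 6.65 CPM in WT pools on CD, 9.96 in replicate 3, and 16.7, 19.4 and 20.1 in WT pools on HFD.

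In HoipA-KO mice diet made no difference past the threshold for any member, with estimates from -0.41 for Ivd (95% interval -0.87 to 0.05) to -0.09 for Mccc2 (-0.65 to 0.47). No gene of the 18427 passed in this comparison (0% called) with edgeR, 415 had an unadjusted p under 0.05, none of them a member, and DESeq2 called 8 genes, none of them a member. The genotype difference on HFD minus that on CD was tested as an interaction. It did not pass for any member, while 3.91% of all genes passed in either direction with edgeR. All 10 estimates were above 0, that is, towards a smaller genotype difference on HFD, from 0.29 for Pcca to 0.92 for Bcat2. The unadjusted p was 0.011 for Acadsb, 0.032 for Bcat2 and 0.0411 for Ivd, and the adjusted p was 0.109, 0.175 and 0.198. DESeq2's Wald test called Acadsb alone among the members, where it called 922 of 31221 genes higher and 1448 lower. The sign of these estimates depended on the WT CD libraries as well, since 4 of the 10 were below 0 without replicate 1 and 7 with replicates 2 and 3 in place of 1 and 2.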

How the data were processed

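Bulk RNA sequencing of GWAT was analysed from 12 libraries in 4 groups of genotype and diet. Reads had been trimmed with Trim Galore 0.6.7, aligned with STAR 2.7.10a and quantified with Salmon 1.5.2 against GRCm38, per the labels' processing notes (the methods name a human assembly), and the authors deposited estimated counts per gene without normalization. The 3 deposited tables of the authors' DESeq2 comparisons were not used. Whole numbers were made of the counts by rounding, genes with low counts were removed with filterByExpr, and TMM factors were used. The counts were fitted over 11 libraries in 1 model of the 4 groups with edgeR 4.0.16 in R 4.3.3, with Benjamini-Hochberg adjustment over all genes, at 0.05. DESeq2 1.42.0 was an alternative. The scripts were tested on simulated data. Genes named are the 10 members, Rnf31, other pathway genes past the threshold in a genotype comparison, and of other lists at most the 3 with the highest mean CPM. Outside this rule, Bckdk was named after its values were seen, and Bcat1 for its difference by diet in WT mice. The members and all lists were chosen with earlier results of these data known. Libraries are separate pools of 3 mice. Replicate numbers were not used to pair them, since the methods name no pairing. Deviations of same-numbered libraries correlated at -0.375 to 0.509, over 0.1 in 6 of 15 pairs. Libraries of different numbers were not compared, so this could not decide whether the numbers pair the libraries. Positions and transcript lengths are from GENCODE M21 (GRCm38), promoters from RefSeq. A gene of the leucine route is counted in its list but not reported here.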

Additional observations from a re-analysis of the deposited data

Results flagged for a closer look

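Among the values given beside the members, the genotype difference of the macrophage markers was not the same on the 2 diets. The median of the 9 markers' log2 genotype difference on HFD minus that on CD was -3.39, and 8 of the 9 passed the test of that difference (edgeR's quasi-likelihood test, adjusted p under 0.05 over all genes). No member passed it.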

How the results depend on the processing

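The direction of all 10 members in both genotype comparisons was the same under each alternative tried. On CD, 6 members and 5 other pathway genes were lower with WT CD replicates 2 and 3 in the fit, a choice made after seeing the data, where 24.4% of all genes were lower. On HFD, 2 members and 2 other pathway genes were lower with all 12 libraries or with WT CD replicates 1 and 3, and 3 and 3 at an adjusted p under 0.01. Of all genes, 407 of 18074, 521 of 18556 and 162 of 18427 were lower in these settings, in that order. WT CD libraries are not compared on HFD, but they enter the shared estimate of spread. The members' median on HFD was -1.139 in the main fit, -1.153 with all 12 libraries and -1.152 with replicates 1 and 3. The SE of Mccc1, for example, was 0.21, 0.38 and 0.40 there. For WT HFD against CD, 5 members were lower without a filter, with at least 10 counts in every library, with protein-coding genes and with DESeq2. Of all genes, 1308 of 31499, 1011 of 14339, 1216 of 15617 and 2286 of 31221 were lower in these settings, in that order. In the same comparison 0 members were lower with all 12 libraries, with WT CD replicates 2 and 3 or 1 and 3, with only the 2 groups compared and at 0.01. Of all genes, 1079 of 18074, 3708 of 19416, 1666 of 18556, 0 of 17200 and 57 of 18427 were lower there, in that order. With 0 genes lower, the fit of only the 2 groups could not set the members apart from other genes. Of the other pathway genes 2 were lower in that comparison by library size only, 9 with protein-coding genes, 10 with DESeq2, 1 with WT CD replicates 2 and 3, and 0 in the other settings just named with no members. DESeq2 called 1 member and 1 other pathway gene higher in the interaction, and 3 other pathway genes lower. Of 31221 genes it called 922 higher and 1448 lower there. The replicate block, which treats same-numbered libraries as paired, left the members' counts at 10, 7, 3 and 0, and gave 2 other pathway genes lower for WT HFD against CD. Of 18427 genes, 2729, 1596, 307 and 0 were lower in these comparisons. With WT CD replicates 2 and 3, log2 fold changes of WT HFD against CD turned to 0.40 (Bckdhb), 0.26 (Dbt), 0.12 (Mccc1), 0.24 (Mccc2), 0.29 (Pcca) and 0.056 (Pccb). Interaction estimates turned to -0.12 (Bckdha), -0.52 (Bckdhb), -0.63 (Dbt), -0.44 (Mccc1), -0.32 (Mccc2), -0.40 (Pcca) and -0.18 (Pccb). By library size only, HoipA-KO HFD against CD gave 0.012 for Acadsb and 0.019 for Mccc2, and with all 12 libraries Pccb/Pcca differed by 0.027. The causes of these changes were not tested.

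Leaving out each of the 11 libraries in turn gave 8 to 10 members lower on CD and 5 to 9 on HFD, 2 to 5 for WT HFD against CD (5 without WT CD replicate 2, HoipA-KO CD replicate 3 or HoipA-KO HFD replicate 1), and 0 for HoipA-KO HFD against CD and for the interaction. Other pathway genes ranged from 15 to 20, 4 to 17 and 1 to 9 in the first 3 comparisons, and from 0 to 1 in the interaction. On HFD they were 4 without WT HFD replicate 1 or 2 or HoipA-KO HFD replicate 2, 6 without HoipA-KO HFD replicate 3, and 9 when HoipA-KO CD replicate 1 was left out. The log2 fold change of WT HFD against CD ranged from -0.88 to 0.079 (Bckdhb) and -1.31 to 0.088 (Dbt), above 0 only without WT CD replicate 1. Interaction estimates ranged from -0.20 to 0.74 (Bckdhb), -0.46 to 0.94 (Dbt), -0.060 to 0.85 (Mccc2) and -0.11 to 0.60 (Pcca), below 0 only without that library. HoipA-KO HFD against CD ranged from -0.32 to 0.060 (Bckdha, above 0 without HoipA-KO CD replicate 3) and -0.25 to 0.042 (Mccc2, above 0 without HoipA-KO HFD replicate 2). Partner ratios ranged from -0.065 to 0.13 (Bckdhb/Bckdha), -0.74 to -0.32 (Dbt/Bckdha), -0.062 to 0.060 (Mccc2/Mccc1) and -0.040 to 0.042 (Pccb/Pcca). A group left with 1 library was assumed to vary like the others. In the fits with more than 1 library in each group, 18136 to 18376 genes were tested. The genes lower among them ranged from 2216 to 4008 on CD, from 237 to 1452 on HFD and from 155 to 1284 for WT HFD against CD. Depth did not limit the members, whose lowest level was 14.7 CPM.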
